A study of Rattus norvegicus with 6 samples.

Results

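Differentially methylated regions (DMRs) were examined in the genes that move calcium into, within and out of the cell, Cacna1c excepted. The group, called the calcium genes below, also takes in calmodulin-dependent kinases and the kinase inhibitor Camk2n1, which move no calcium. A region belonged to this group when the annotation table gave it a gene symbol that starts with Cacna1, Cacna2d, Cacnb, Cacng, Ryr, Itpr, Atp2a, Atp2b, Camk, Trpc, Trpm, Trpv, Stim or Orai, followed by a digit or a subtype letter. The rule used the symbol and no measured value, and it gave 113 regions in 43 genes, of 24862 annotated regions of which 12262 were assigned to a gene. Of 79 protein-coding rat genes in RefSeq whose symbol matches the rule, 43 (54.4%) carried a region and 36 did not, and of all 20972 named protein-coding genes matched by symbol 28.6% carried one. A longer gene offers more room for a region, and gene lengths were not used here, so the shares are a description and were not tested.

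Methylation was profiled in brain microvascular endothelial cells (BMECs) sorted as CD45-/CD31+ cells from the hippocampus of adult male Sprague-Dawley rats. The CUMS group, 3 samples, had gone through 8 weeks of chronic unpredictable mild stress. The changing stressors were restraint, food and water deprivation together, cage tilt, wet bedding, cold swimming and continuous light. The Ctrl group, also 3 samples, was left unstressed, and the labels name no other treatment for either group. For each region the tables hold 1 level per group, pooled by the authors, so the values below come without a replicate error or a read depth, and whether a difference exceeds the spread between rats could not be tested. Expression values were not analysed here, so the endothelial label was not checked against marker genes, and a changed level per cell cannot be told apart from a changed mix of sorted cells. A level is the mean methylation of a region in a group, as given by the authors, in percent. A difference is CUMS minus Ctrl in percentage points, with hypermethylated standing for a higher level in CUMS.

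Calcium enters a cell through voltage-gated channels, through TRP channels and through ORAI channels that STIM proteins open when the endoplasmic reticulum runs empty. Inositol trisphosphate receptors and ryanodine receptors release calcium from that store, SERCA pumps (Atp2a genes) refill it, and plasma membrane pumps (Atp2b genes) expel calcium from the cell. Endothelial cells are not electrically excitable and are known to rely mainly on store release, store-operated entry and TRP channels, and calcium there drives nitric oxide synthesis and the opening of cell contacts. In mammalian DNA most methylation sits on cytosines followed by guanine (CG), promoters rich in CG (CpG islands) are mostly unmethylated, and methylation in the CHG and CHH contexts, where H is any base but G, is low outside neurons and stem cells.

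CG regions in promoters were all higher in CUMS, so the sequences of such promoters are shown first. The windows are RefSeq promoters of the GRCr8 assembly, 300 bases across the transcription start, read 5′ to 3′ on the gene's strand with each CG in capitals. The regions were deposited on another assembly, mRatBN7.2, and the place of a region inside its window was not determined. RefSeq windows were found for 63 of the 79 genes, 71 windows in all, and for 6 of the 12 genes with a CG region in the promoter. Those 6 are Atp2a2 (SERCA pump, chr12:39733269-39733568, plus strand), Atp2b1 (plasma membrane pump, chr7:35622211-35622510, plus strand), Cacna1d (L-type channel, chr16:5527500-5527799, minus strand), Cacna2d3 (auxiliary subunit, chr16:4918850-4919149, minus strand), Camk2g (calmodulin-dependent kinase, chr15:3553106-3553405, plus strand) and Ryr2 (ryanodine receptor, chr17:63081277-63081576, plus strand).
Atp2a2: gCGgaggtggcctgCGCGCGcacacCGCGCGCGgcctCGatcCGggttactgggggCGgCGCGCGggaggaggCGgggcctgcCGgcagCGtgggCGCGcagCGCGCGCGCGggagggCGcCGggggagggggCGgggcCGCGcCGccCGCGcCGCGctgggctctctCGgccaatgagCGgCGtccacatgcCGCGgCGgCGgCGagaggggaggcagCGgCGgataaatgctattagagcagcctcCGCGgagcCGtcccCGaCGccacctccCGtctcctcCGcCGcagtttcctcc
Atp2b1: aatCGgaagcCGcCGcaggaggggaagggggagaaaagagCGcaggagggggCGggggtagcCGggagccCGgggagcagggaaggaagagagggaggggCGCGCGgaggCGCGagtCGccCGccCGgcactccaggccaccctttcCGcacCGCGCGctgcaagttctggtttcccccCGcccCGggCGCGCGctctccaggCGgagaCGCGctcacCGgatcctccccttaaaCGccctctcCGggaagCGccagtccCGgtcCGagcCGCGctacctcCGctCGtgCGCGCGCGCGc
Cacna1d: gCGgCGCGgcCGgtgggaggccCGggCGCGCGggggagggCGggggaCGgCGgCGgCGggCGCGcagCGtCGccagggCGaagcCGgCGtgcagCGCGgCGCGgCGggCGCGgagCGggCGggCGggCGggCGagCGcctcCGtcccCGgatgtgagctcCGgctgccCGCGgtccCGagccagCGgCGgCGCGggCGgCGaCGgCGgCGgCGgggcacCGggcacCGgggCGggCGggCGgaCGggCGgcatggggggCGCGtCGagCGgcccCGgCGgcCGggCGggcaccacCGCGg
Cacna2d3: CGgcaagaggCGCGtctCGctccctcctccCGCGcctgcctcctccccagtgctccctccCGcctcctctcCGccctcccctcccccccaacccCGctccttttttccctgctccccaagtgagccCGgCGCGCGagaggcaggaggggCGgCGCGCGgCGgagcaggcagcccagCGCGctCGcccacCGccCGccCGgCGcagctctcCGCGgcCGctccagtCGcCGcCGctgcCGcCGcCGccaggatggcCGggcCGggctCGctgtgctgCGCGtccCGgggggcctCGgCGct
Camk2g: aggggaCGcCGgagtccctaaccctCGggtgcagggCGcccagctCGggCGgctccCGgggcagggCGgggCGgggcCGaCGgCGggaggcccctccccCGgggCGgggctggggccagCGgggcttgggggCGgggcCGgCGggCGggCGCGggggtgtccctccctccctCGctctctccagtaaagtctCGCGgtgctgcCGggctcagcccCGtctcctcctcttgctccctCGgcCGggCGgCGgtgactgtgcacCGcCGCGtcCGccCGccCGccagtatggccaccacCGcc
Ryr2: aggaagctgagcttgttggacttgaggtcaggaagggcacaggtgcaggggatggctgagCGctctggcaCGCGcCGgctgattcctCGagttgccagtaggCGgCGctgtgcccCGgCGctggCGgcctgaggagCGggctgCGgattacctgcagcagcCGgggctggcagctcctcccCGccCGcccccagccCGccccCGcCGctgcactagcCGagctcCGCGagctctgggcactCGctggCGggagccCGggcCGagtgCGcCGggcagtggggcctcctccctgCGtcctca

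The motif counted was CG, which reads the same on both strands. The Cacna1d window held 66 CG in its 300 bases, and 0.00299% of the 33469 windows of all genes held as many. Atp2a2 had 52 (0.493% of windows held as many), Atp2b1 and Cacna2d3 had 42 each (2.40%), Camk2g had 37 (4.78%) and Ryr2 had 28 (12.7%). The other 65 windows of the calcium genes ranged from 0 to 59 CG with a median of 16, beside a median of 42 for the 6 shown. Over all genes the medians were 29 for windows of genes with a CG region in the promoter and 7 for the others, so the calcium genes followed the pattern of all genes. The window of Camk4, whose promoter region was in the CHH context, held 0 CG, as did 5.47% of all windows.

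**Figure D1:**
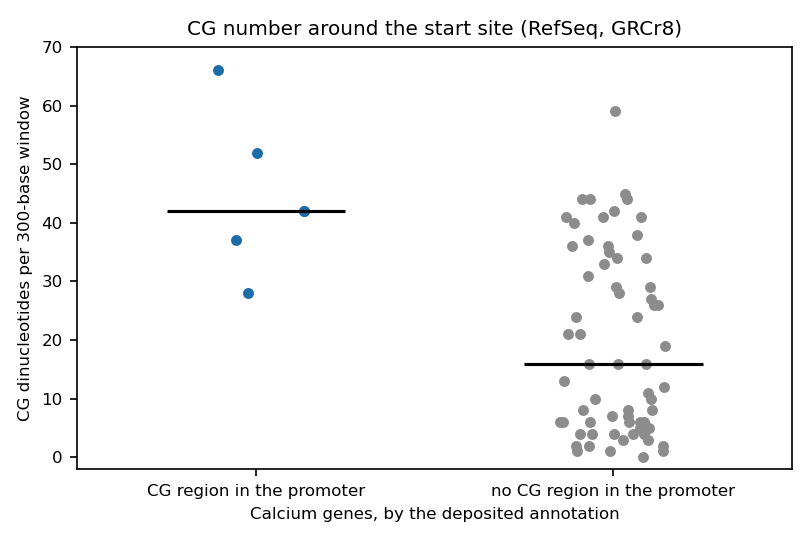
Number of CG dinucleotides in each RefSeq promoter window of 300 bases (GRCr8) of the calcium genes, for 6 windows of genes with a CG region in the promoter and 65 windows of the others. Points are windows and bars are medians, 42 and 16.

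To determine in which direction the calcium genes differed between the groups, regions were first counted by context. Of the 113 regions, 88 were hypermethylated in CUMS and 25 hypomethylated, a hypermethylated share of 77.9%, and the share over all regions assigned to a gene was 78.1%. The 31 CG regions comprised 29 hypermethylated and 2 hypomethylated regions (93.5%, 87.7% over all gene regions). Among the 45 CHG regions 33 were higher in CUMS (73.3%, 69.3% over all), and among the 37 CHH regions 26 were higher (70.3%, 77.5% over all). The share over all contexts was thus near that of all genes. The CG and CHG shares lay above and the CHH share below, which was not tested. Higher levels in CUMS formed the majority in each context over all genes too, so that majority is no feature of the calcium genes in particular.

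Sizes were then compared. The study's methods state 10 percentage points as the lower limit of a difference, a size that was reached by 38 of the 113 regions (33.6%), beside 33.2% of all regions assigned to a gene. In CG the limit was reached by 25 of 31 regions (80.6%, 70.1% over all), in CHG by 1 of 45 (2.22%, 2.65% over all) and in CHH by 12 of 37 (32.4%, 27.8% over all). The median size of a CG difference was 17.6 points in the calcium genes and 13.9 over all genes. For CHG the medians were 4.08 and 4.10 points, and for CHH they were 7.48 and 7.05.

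Levels differed strongly in kind between the contexts. In the 33 hypermethylated CHG regions the Ctrl level ranged from 0.0117% to 0.473%, and in the 26 hypermethylated CHH regions from 0.0246% to 0.777%. These regions were thus nearly unmethylated in Ctrl. In CUMS the CHG levels ranged from 2.11% to 12.4% with a median of 4.19%, and the CHH levels from 2.68% to 34.3% with a median of 8.81%. The hypomethylated CHG regions mirrored this, with CUMS levels from 0.0191% to 0.319% and a median Ctrl level of 4.30%. Over all genes the median levels of hypermethylated CHG regions were 0.0540% in Ctrl and 4.28% in CUMS. For hypermethylated CHH regions they were 0.212% and 7.94%. Hypomethylated CHG regions over all genes had medians of 0.0375% in CUMS and 4.09% in Ctrl. The pattern is thus no feature of the calcium genes in particular. CG levels of the calcium genes covered a far wider span, from 3.86% to 89.6% in Ctrl.

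Position separated the CG regions. Of the 15 CG regions in promoters, all 15 were hypermethylated, beside 96.9% over all genes, and all 15 lay in a CpG island. They belonged to 12 genes, and 7 of them, each in a different gene, covered the transcription start site. All 25 CG regions in islands, promoters and gene bodies together, were higher in CUMS, beside 97.8% over all genes. Their median level was 7.95% in Ctrl and 23.5% in CUMS. The 6 CG regions far from any island (open sea) split into 4 hypermethylated and 2 hypomethylated, and the background share there was 62.3%. Promoter regions made up 48.4% of the CG regions of the calcium genes, beside 37.2% over all genes. Regions at the start site made up 22.6%, beside 10.8% over all. Promoters held 1 of the 45 CHG regions (Cacnb1, 2.22%, 10.7% over all). They held 2 of the 37 CHH regions (Atp2a3 and Camk4, 5.41%, 8.44% over all). These shares were not tested.

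**Figure D2:**
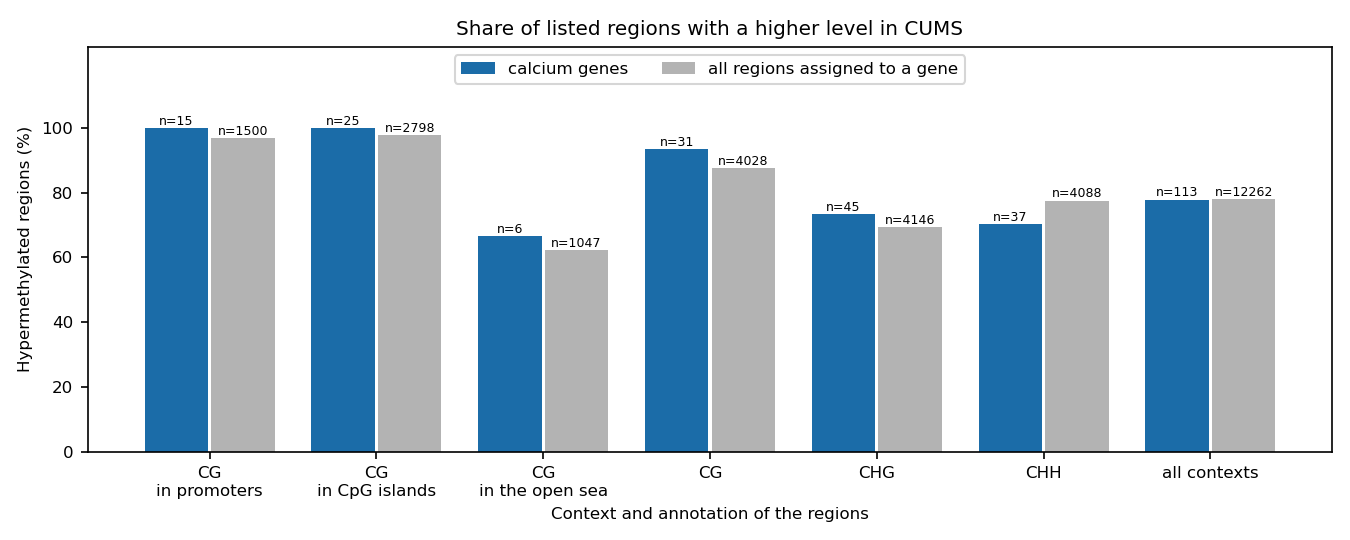
Share of listed regions with a higher level in CUMS (percent, vertical axis) by context and annotation, for the calcium genes (blue) and all regions assigned to a gene (grey), with the number of regions above each bar. The 15 promoter and 25 island CG regions of the calcium genes all lie at 100%, and the pairs of bars for all contexts stand at 77.9% and 78.1%.

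Most of the other regions lay inside genes. Regions annotated to introns alone numbered 77 (68.1%, 65.3% over all gene regions), of which 57 were hypermethylated. Repeats covered part of 32 regions (28.3%, 33.0% over all), most often LTR elements (14 regions), SINEs (11) and LINEs (7). Reads from a repeat can be placed in another copy, and the part of this in the levels was not tested.

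**Figure D3:**
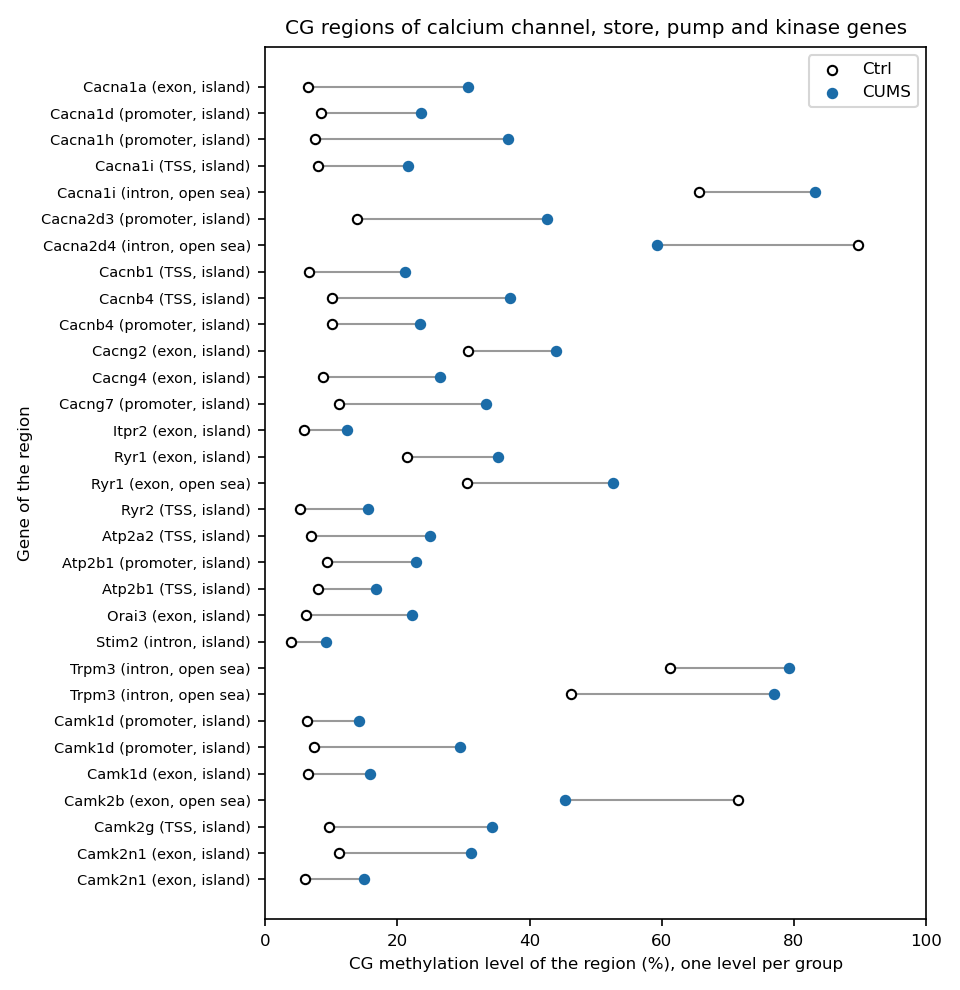
CG methylation level of the 31 CG regions in Ctrl (open circles) and CUMS (filled circles), in percent, with 1 pooled level per group and no replicate error. The island regions start between 3.86% and 30.7% in Ctrl and all lie higher in CUMS, and Cacna2d4 and Camk2b are the 2 regions with a lower level in CUMS.

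The counts by family and gene below stand beside shares over all genes and were not tested. Of all named protein-coding genes 28.6% carried a region, and 78.1% of all gene regions were hypermethylated (87.7% in CG). The percent given with a family is its hypermethylated share. The pore-forming voltage-gated subunits were examined next. They carried 21 regions in 8 of 9 genes, 16 hypermethylated and 5 hypomethylated (76.2%), and Cacna1g had none. The largest CG difference was in Cacna1h, which encodes a T-type channel that opens at low voltage. Its promoter region (chr10:14448602-14448763, 29 cytosines, in an island) had 36.7% in CUMS and 7.54% in Ctrl, 29.1 points apart. Cacna1i, another T-type channel, had an island region across its start site (chr7:111835842-111836103) with 21.6% in CUMS and 8.00% in Ctrl. Farther into that gene an open sea CG region stood at 83.3% and 65.7%, so CUMS was higher both where Ctrl was low and where it was high.

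Among the high-voltage channels, Cacna1d, an L-type channel gene, had 23.5% against 8.50% in Ctrl in its promoter island (chr16:5521024-5521400, 152 cytosines). Its other 3 regions were a hypermethylated CHG and a hypermethylated CHH region and a CHH region with a lower level in CUMS (0.139% against 3.73%). Cacna1a, the P/Q-type channel of nerve terminals, had an island CG region over an exon and an intron (chr19:23522950-23523220) with 30.7% in CUMS and 6.51% in Ctrl, and 1.95 kb on, a CHG region with the opposite direction, 0.0191% against 2.36%. Cacna1b, the N-type channel of nerve terminals, carried no CG region. A CHG and a CHH region of Cacna1b overlapped by 74 bp in an intronic LTR element and were both lower in CUMS, the CHG region with 0.0961% against 8.63% and the CHH region (chr3:7396345-7396685) with 0.484% against 22.9%. That CHH difference of -22.5 points was the largest in this direction among the CHH regions of the calcium genes.

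Cacna1f, an L-type channel known from the retina and located on chromosome X, held the largest CHG difference of the calcium genes. A region over an exon and an intron (chrX:14871575-14871895) had 12.4% in CUMS and 0.0230% in Ctrl, the single CHG region of the calcium genes past 10 points. It overlapped satellite and BC1 repeats. A second intronic region of the gene, 20.5 kb away, went the other way with 0.0248% against 6.67%. The R-type gene Cacna1e (2 regions) and the skeletal muscle gene Cacna1s (1 region) carried hypermethylated intronic CHH regions.

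Auxiliary subunits set how many channels reach the membrane and how they gate. They carried 25 regions in 11 of 16 genes, 20 hypermethylated and 5 hypomethylated (80%), and Cacnb3, Cacng1, Cacng5, Cacng6 and Cacng8 had none. The α2δ gene Cacna2d3 had the largest promoter difference of the family (chr16:4912540-4912862, 88 cytosines), with 42.7% in CUMS and 13.8% in Ctrl. Its relative Cacna2d4 showed the largest CG difference toward a lower level among the calcium genes, at 59.3% in CUMS against 89.6% in Ctrl, in an intronic open sea region of 60 bp (chr4:152421187-152421246). The family therefore held both a promoter island that was higher in CUMS and a gene-body region that was lower. All 4 regions of Cacna2d2 were CHG regions, 3 higher and 1 lower in CUMS, with sizes from 2.79 to 3.86 points, and Cacna2d1 had 1 hypermethylated CHH region.

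The β subunit genes Cacnb1 and Cacnb4, whose products carry the pore to the membrane, both had CG regions over the start site. Cacnb4 (chr3:37168685-37168978) had 37.1% in CUMS against 10.1% in Ctrl, and a second promoter region 97 bp away had 23.4% and 10.1%. In Cacnb1 (chr10:83018663-83018749) the levels were 21.2% and 6.63%, and 376 bp farther a promoter CHG region was lower in CUMS, with 0.216% against 4.96%. Neighbouring CG and CHG regions of the Cacnb1 promoter thus differed in direction. Both are also assigned to Rpl19, a ribosomal protein gene, so they cannot be credited to Cacnb1 alone. Cacnb2 had 3 hypermethylated intronic CHH regions.

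The γ genes, several of which encode partners of AMPA-type glutamate receptors, were higher in CUMS in all 3 of their CG regions. All 3 lay in islands, where 97.8% of CG regions over all genes were higher. The promoter island of Cacng7 (chr1:65831038-65831128) had 33.4% in CUMS and 11.1% in Ctrl, and its other regions were a hypermethylated CHG and a hypomethylated CHH region. Exonic island regions of Cacng2 and Cacng4 were higher by 13.3 and 17.7 points. Cacng3 had 1 CHH region in each direction.

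**Figure D4:**
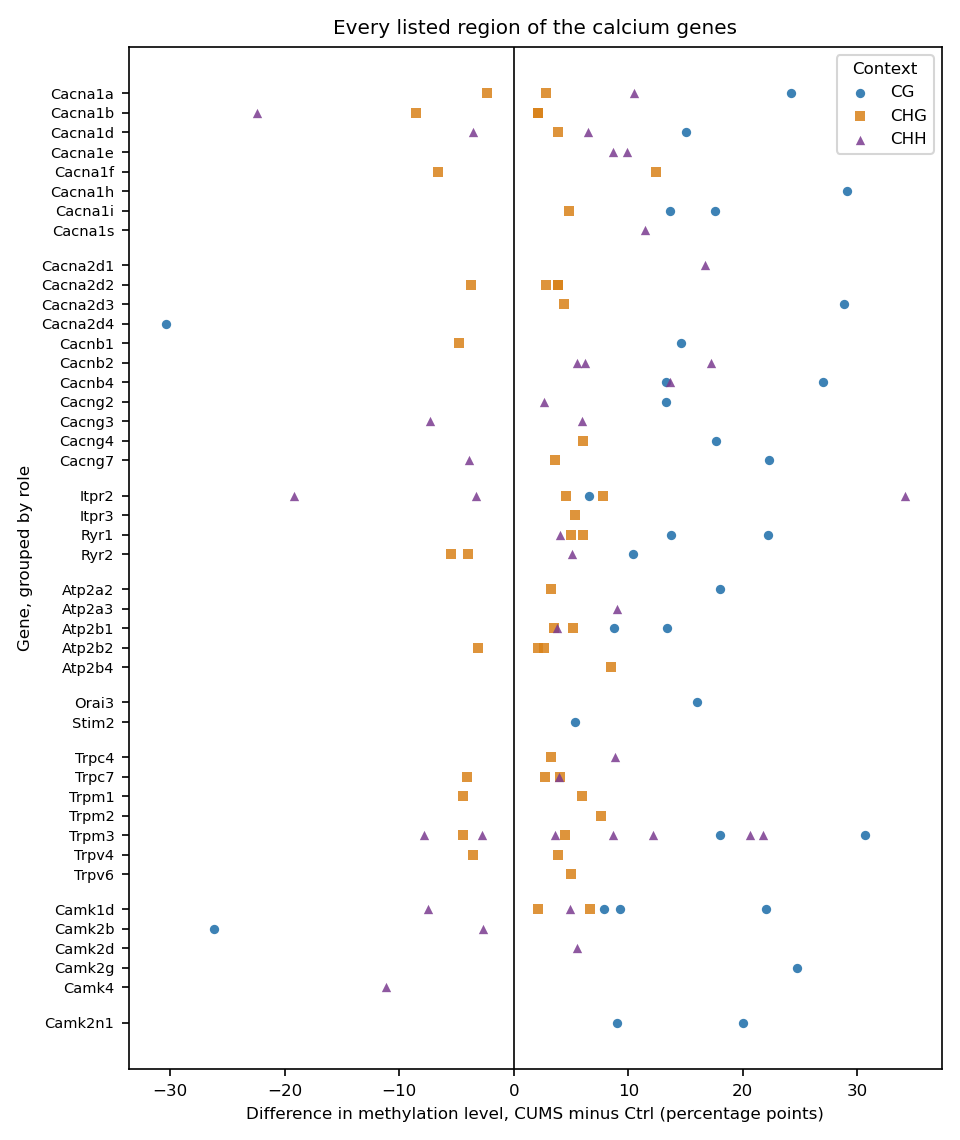
Difference in methylation level (CUMS minus Ctrl, percentage points) of each of the 113 regions, by gene and grouped by role, with CG as circles, CHG as squares and CHH as triangles. CG points lie to the right of 0 except in Cacna2d4 and Camk2b, while CHG and CHH points fall on both sides, in 16 genes with both directions in the same gene.

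Next, to examine the genes that release stored calcium, the inositol trisphosphate and ryanodine receptor genes were analysed. They carried 16 regions in 4 of 6 genes, 12 hypermethylated and 4 hypomethylated (75%), and Itpr1 and Ryr3 had none. Itpr2, a receptor of non-excitable cells as well as muscle, held the largest difference among all 113 regions. An intronic CHH region (chr4:179349328-179349633, 306 bp, 122 cytosines) had 34.3% in CUMS against 0.0934% in Ctrl and ranked 42 by size among the 9996 annotated CHH regions. Another intronic CHH region of Itpr2 (chr4:179205388-179205649) had 5.88% in CUMS and 25.1% in Ctrl. The gene thus carried large CHH differences in both directions, both outside repeats. Its island region over an exon and the 5′ untranslated region was higher by 6.56 points (12.4% against 5.85%), 2 CHG regions were higher and the remaining CHH region was lower. Itpr3 had 1 hypermethylated CHG region.

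Ryr1, the ryanodine receptor best known from skeletal muscle, had 5 regions and all were hypermethylated. An open sea exonic CG region (chr1:84386684-84386991) had 52.6% in CUMS and 30.5% in Ctrl, and an exonic island region had 35.2% and 21.5%. A CHG region of 98 bp lay wholly inside a CHH region, with 5.04% against 0.0378% in CHG and 4.16% against 0.144% in CHH. Ryr2, the form of heart and brain, was higher across its start site (chr17:58389923-58390116), with 15.6% and 5.20%, and in 1 CHH region. Its 2 CHG regions were lower, with 0.0282% against 4.05% and 0.0776% against 5.59%.

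The calcium pumps were next. They carried 12 regions in 5 of 7 genes, 11 hypermethylated and 1 hypomethylated (91.7%, 78.1% over all), and Atp2a1 and Atp2b3 had none. The SERCA gene Atp2a2, active in nearly all cells, had the widest start site region of the list (chr12:34072679-34073078, 400 bp and 120 cytosines), with 25.0% in CUMS and 6.91% in Ctrl. Atp2a3, a SERCA gene expressed in endothelium and blood cells, had a CHH region in its promoter and an intron with 9.52% and 0.517%. The plasma membrane pump Atp2b1, also expressed in most cells, had 5 regions, all hypermethylated. Its 2 CG regions lay 85 bp apart in the promoter island, at 22.7% against 9.40% upstream (chr7:33735314-33735766) and at 16.7% against 7.95% over the start site. The neuronal pump Atp2b2 had 2 higher and 1 lower CHG region, with sizes from 2.08 to 3.15 points, and Atp2b4 had 1 CHG region in an LTR element with 8.53% and 0.0215%.

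Store-operated entry was represented by 2 regions in 2 of 5 genes, and Orai1, Orai2 and Stim1 had none. Both regions were CG regions in islands and higher in CUMS, beside 97.8% of island CG regions over all genes. Orai3, a pore subunit, had 22.2% in CUMS and 6.15% in Ctrl in a region over an exon, an intron and the 5′ untranslated region (chr1:182359639-182359824), which is also assigned to Fbxl19. Stim2, a sensor of the calcium content of the store, had 9.22% and 3.86% in an intronic region, the smallest CG difference of the list.

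TRP channels carried 23 regions in 7 of 21 genes, 17 hypermethylated and 6 hypomethylated (73.9%), and 11 of the 23 belonged to Trpm3. Trpm3 encodes a channel opened by heat and by the steroid pregnenolone sulphate. Its regions spread over 791 kb (chr1:219768062-220558626), all but 1 of them in introns, and comprised 8 with a higher and 3 with a lower level in CUMS. The largest CG difference of the calcium genes toward a higher level was among them, in a short region with 4 cytosines in an LTR element (chr1:220138998-220139098), at 77.0% against 46.3%. A second CG region had 79.2% and 61.2% in a repeat of unknown class. CHH regions of Trpm3 reached 22.0% against 0.301% (chr1:219952883-219953192, outside repeats) and 21.0% against 0.384% (in a SINE). Repeats covered part of 9 of the 11 regions.

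The other TRP genes had no CG region. Trpc7, a channel opened downstream of phospholipase C, had 3 higher regions and 1 lower, with sizes from 2.76 to 4.08 points. Trpv4, an endothelial channel sensitive to flow and swelling, had 1 CHG region in each direction (3.96% against 0.0859%, and 0.0249% against 3.61%), as did Trpm1. Trpc4 had 2 hypermethylated regions, and Trpm2 and Trpv6 had 1 each. No region was listed for the other 14 TRP genes, among them Trpc1, Trpc6, Trpm4, Trpm7, Trpv1 and Trpv2, nor for Trpc5os, a gene that the symbol rule also takes in.

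**Figure D5:**
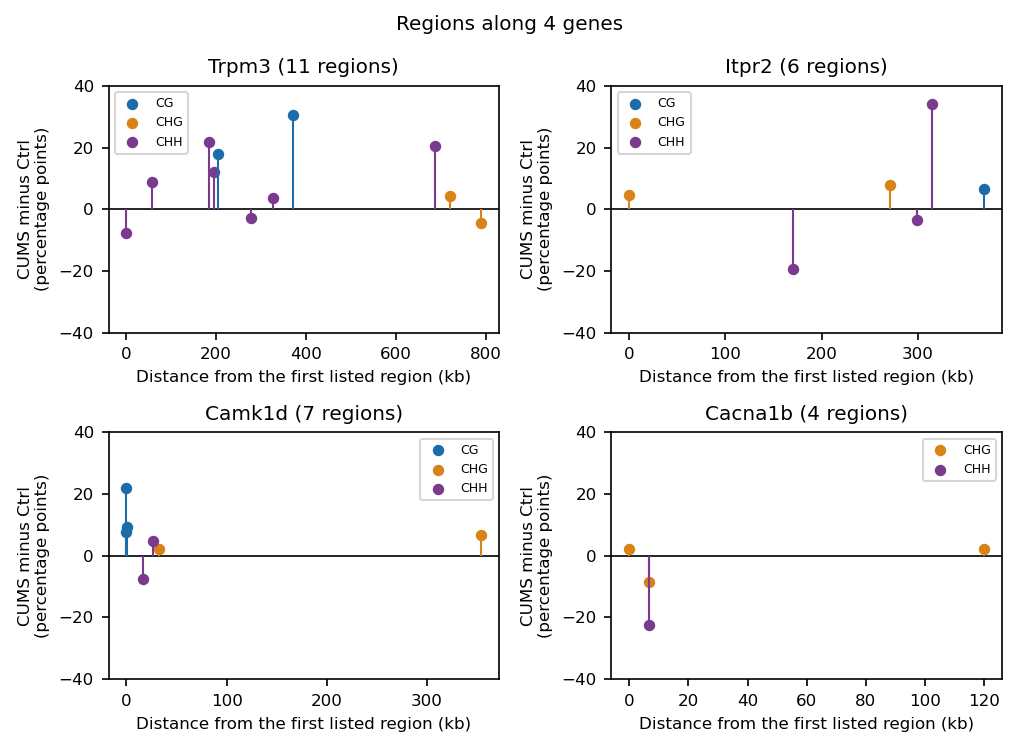
Difference in methylation level (CUMS minus Ctrl, percentage points) of each region along Trpm3, Itpr2, Camk1d and Cacna1b, against the distance from the first listed region of the gene in kb, with 1 stem per region coloured by context. The 3 CG regions of Camk1d stand together near 0 kb, while the tall CHH stems of Itpr2 (34.2 and -19.2 points) lie at 314 and 170 kb.

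Last, the kinases that calcium-bound calmodulin switches on were considered. They carried 12 regions in 5 of 11 genes, 8 hypermethylated and 4 hypomethylated (66.7%), and Camk1, Camk1g, Camk2a, Camkk1, Camkk2 and Camkv had none. Camk1d had 7 regions, among them 3 CG regions in the island at its start (chr17:72581448-72582112). Their levels were 14.2% against 6.36%, 29.4% against 7.40% and 15.8% against 6.53%, so the 3 neighbours shared a direction while the sizes differed. Camk2g, a CaMKII gene of most tissues, had 34.3% and 9.60% across its start site (chr15:3504015-3504239).

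The 2 genes Camk2b and Camk4, both mainly neuronal, carried hypomethylated regions alone, as did Cacna2d4. In Camk2b an open sea CG region over an exon and an intron (chr14:80885438-80885585) had 45.4% in CUMS and 71.5% in Ctrl, and an intronic CHH region was also lower. In Camk4 a promoter CHH region (chr18:24584386-24584674) had 0.226% and 11.4%. Camk2d had 1 hypermethylated CHH region. Camk2n1, an inhibitor of CaMKII that the symbol rule takes in, had 2 exonic CG regions 124 bp apart at the edge of an island, with 31.2% against 11.2% and 15.0% against 5.97%. Camk2n2 and Trpc4ap had none.

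Counted by gene, 24 of the 43 genes carried hypermethylated regions alone, 3 hypomethylated regions alone and 16 both. A single region was listed for 14 genes, while 11 genes with at least 4 regions held 58 of the 113. The matching counts over all genes were not made and gene lengths were not used. These counts are therefore a description and show no trait of the calcium genes. Cacna1c, left out by the rule, had 9 regions, 8 higher and 1 lower in CUMS. Its 2 CG regions differed by 7.47 and 6.58 points, and the CG regions of the calcium genes with a higher level differed by 5.36 to 30.7 points.

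Other genes of calcium handling were counted for comparison, from a list of 81 genes of exchangers, the mitochondrial uniporter, buffers, calcineurin, NFAT factors, phospholipase C and other calcium channels. Of these, 35 genes carried 73 regions, 60 hypermethylated and 13 hypomethylated (82.2%, 78.1% over all gene regions), with a median size of 7.30 points (6.84 over all). Their 22 CG regions comprised 21 with a higher level (95.5%, 87.7% over all), and all 9 CG regions in promoters were higher in CUMS, beside 96.9% over all. Of their 25 CHH regions 23 were higher (92.0%, 77.5% over all), and of their 26 CHG regions 16 (61.5%, 69.3% over all). The share over all contexts and that in promoters were near those of all genes. The CG and CHH shares lay above and the CHG share below, which was not tested. Phospholipase C genes, which make inositol trisphosphate, held the most regions, with 7 higher and 1 lower in Plcb1, 3 higher and 2 lower in Plcb4, and 1 higher and 2 lower in Plcg2. The Plcb3 promoter island had 32.5% in CUMS and 12.7% in Ctrl.

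In calcineurin signalling, CG promoter regions in islands were listed for 2 genes, Ppp3ca and Nfatc1. Ppp3ca, a catalytic subunit of calcineurin, had 23.4% in CUMS and 7.07% in Ctrl, and Nfatc1, a transcription factor that calcineurin activates, had 22.5% and 6.95%. Slc24a3, a potassium-dependent sodium-calcium exchanger, had 5 regions and all were hypermethylated. The mitochondrial uniporter differed in direction, since both regions of Mcu, intronic CHG regions, were lower in CUMS (1.13% against 4.43%, and 1.08% against 7.62%). A promoter CG region of Micu3, a regulator of the uniporter, was higher, with 18.5% and 7.22%. Promoter CG regions of Atp2c1, Jph1 and Vdac3 were higher by 7.87, 15.7 and 7.49 points, and that of P2rx7, outside an island, had 81.1% against 60.7% in Ctrl.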

How the data were processed

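Genomic DNA of CD45-/CD31+ cells from the hippocampus of 3 CUMS and 3 Ctrl rats was converted with TET2 and APOBEC3A and sequenced. A cytosine left unconverted was read as methylated, so incomplete conversion would raise a level. Per the labels and the study's methods, the authors used FastQC 0.11.3, fastp 0.20.0, Bismark 0.16.3 with Bowtie2, mRatBN7.2 and DSS. The deposited tables give levels as a fraction from 0 to 1, 1 pooled value per group and region, which were turned into percent. They also hold the authors' own differences and region scores, which were not used. There are no read counts, coverage or p-values, so no test was run and levels have no interval. The smallest listed difference was 2.00 points.

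Regions were counted once by chromosome, start, end and context, and coordinates are 1-based on mRatBN7.2. Symbols were matched with Python 3.11.15 and pandas 2.3.3. The symbol rule was checked on a short set of gene names with known answers, and the counting steps were not tested in this way. A RefSeq table (GRCr8) gave the number of genes and the promoter windows. Symbols that are LOC placeholders were left out of the count of all genes. The members, gene lists and alternatives were chosen with earlier results of these data known. Genes were named when they had a promoter region, the largest difference of their family in either direction, 1 of the 3 largest of a context and direction, at least 4 regions or overlapping regions, and the other members were described to account for each. Of the other calcium genes, those with at least 3 regions or a promoter region could be named, and Mcu was named after its values were seen. Some genes covered by these rules are left unnamed. Alternatives changed the size limit, number of cytosines, length, contexts, gene set and region list.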

Additional observations from a re-analysis of the deposited data

Results flagged for a closer look

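The full region list holds differences that the annotation table leaves out. Between the outermost annotated regions of the 29 calcium genes with more than 1 region, it listed 328 regions, of which 229 were not in the annotation table. Of the 229, 147 were hypermethylated and 82 hypomethylated (64.2%), with a median size of 2.70 points. Over all 135830 regions outside the annotation table the share was 63.5% and the median 2.68 points. Their levels are pooled per group as well, and no cause was tested. The Trpm3 stretch held 41 such regions, the largest with a difference of 18.1 points, and that of Camk1d held 33.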

How the results depend on the processing

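No paired analysis was possible because each level pools the 3 samples of its group, and leaving out a replicate was not run for the same reason. Of 60 comparisons with an alternative, 46 stayed close to the value as reported and 14 moved, with counts taken as moved beyond 1.5 times. The hypermethylated share ranged from 68.0% to 86.8% over 12 alternatives, so regions with a higher level in CUMS remained the majority in each. With differences of at least 10 points, 33 hypermethylated and 5 hypomethylated regions (86.8%) in 28 genes were left, and with at least 5 points 11 hypomethylated regions. Without CHH regions 14 hypomethylated regions were left, and without CHG regions 55 hypermethylated and 13 hypomethylated. The full list was taken between the outermost regions of the 29 genes with more than 1 region, so genes with 1 region dropped out. In those stretches it added CHH regions alone and gave 223 and 105 (68.0%). These counts thus cover fewer genes than the 88 and 25 reported above. These settings keep fewer or add smaller differences by construction. For the other calcium handling genes, 22 regions (100% hypermethylated) reached 10 points and 90.2% were hypermethylated from 5 points, alternatives chosen after the data were seen. Merging regions within 1 kb, leaving out regions shared with another gene, or adding Cacna1c moved no count by over 1.5 times. Without counts the precision of single levels stays unknown.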

Other observations

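Genes that share a symbol start with the calcium genes but not their role were counted apart. Camkmt, a calmodulin methyltransferase, had 1 CHG region with 0.0901% in CUMS and 5.74% in Ctrl. Itprid1 had a CHH region with 17.0% and 2.74% and a CHG region with 0.513% and 5.59%, and Itprid2 had a CHG region with 2.45% and 0.0270%. These 4 regions split evenly between the directions, and none was in the CG context.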
